A study of Mus musculus with 9 samples.

Results

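Potassium, calcium and transient receptor potential (TRP) channel genes were followed over 3 groups of cells of the bone lineage. The set holds every gene whose symbol begins with Kcn and ends in a number, the Cacna genes, Cacnb1 to Cacnb4, and the Trpc, Trpm and Trpv genes, with Kcnq1 left out. It came to 122 of the 19938 genes tested, each read from 1 probe set. Membership follows from the symbol. RNA was measured on 9 arrays, 3 in each group. Osteosarcoma was represented by 3 cell lines (lines 1, 2 and 3) from tumours of adult C57BL/6 mice of the genotype Osx-Cre p53fl/fl Rbfl/fl, in which Cre under the osteoblast-lineage promoter Osx deletes p53 and Rb. Lines 1 and 3 came from female mice and line 2 from a male mouse, the labels describe all of them as fibroblastic, and they were grown subconfluent and below passage 8. Pre-osteoblasts were undifferentiated cultures of Kusa4b10, a line of stromal cells from mouse bone marrow, and osteoblasts were Kusa4b10 cultures after 21 days in ascorbate-supplemented medium. No strain, sex or engineered allele is given for Kusa4b10 in the labels. Since all control cultures come from 1 line, tumour state and line of origin cannot be told apart, nor can differentiation and the duration or medium of culture. The labels call the Kusa4b10 samples independent but do not name separate cultures, so p values measure the spread between samples only. That spread is 1 estimate per gene, pooled within all 3 groups. It thus holds the spread between tumour lines also where only the Kusa4b10 groups are compared.

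Potassium channels let potassium leave the cell and hold the membrane at a negative voltage. Voltage-gated calcium channels open when that voltage collapses and admit calcium, which acts as a signal inside the cell. TRP channels are cation channels that respond to stretch, heat, lipids or calcium itself. In bone cells these channels are known for their part in the response to mechanical load, in calcium signalling and in the control of proliferation.

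Levels are log2 expression values, and a difference of 1 is a 2-fold change. A group is called above the array median for a gene when its mean exceeds the mean of the medians over all probe sets of its arrays, which was 7.52 in pre-osteoblasts, 7.53 in osteoblasts and 7.47 in osteosarcoma. A gene is called changed when its adjusted p in limma, over all 19938 genes, is below 0.05. Differences are given with the standard error of the fit. The number of arrays limits the precision.

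All 9 arrays were retained, and array medians lay between 7.43 and 7.56. Rb1 was at 9.17 to 9.28 in pre-osteoblasts, 10.63 to 10.65 in osteoblasts and 9.26 to 9.85 in the lines, and the position of its probes relative to the deleted part was not used, so this does not check the deletion. Of all genes tested, 10.3% rose and 15.8% fell in osteoblasts against pre-osteoblasts. Of 8 osteoblast markers, 6 rose in osteoblasts against pre-osteoblasts, and the bone sialoprotein gene Ibsp was at 12.91 to 13.62 in osteoblasts, 5.97 to 6.72 in pre-osteoblasts and 6.34 to 8.13 in the lines. Of 8 adipocyte markers, 6 rose as well, and the mean level of that list was 10.44 to 11.11 in osteoblasts, 7.55 to 8.07 in pre-osteoblasts and 7.10 to 7.59 in osteosarcoma. All 15 measured mitosis genes fell in osteoblasts, with a list mean of 8.34 to 9.54 there, 10.57 to 11.38 in pre-osteoblasts and 11.13 to 11.59 in osteosarcoma. Osteoblast replicate 2 held the highest of these osteoblast mitosis values, and pre-osteoblast replicate 1 the lowest pre-osteoblast one. The part of fat cells or of growth state in the channel results was not tested. Lists of skeletal muscle, heart muscle, neuron, haematopoietic, endothelial and epithelial markers had mean levels of 6.61 to 7.48 on every array, near or below the array median. Of 8 neuron markers, 2 were above the array median in some group. In osteosarcoma 1 was called higher than in pre-osteoblasts, and 2 higher and 1 lower than in osteoblasts, counts that changed without single arrays. Of all genes tested, 9.96% were higher and 13.5% lower in osteosarcoma than in pre-osteoblasts, and 14.7% higher and 12.7% lower than in osteoblasts. The neuron list is small, and some of its counts lie near these shares. The neuronal cytoskeleton gene Map2 was at 8.28, 7.67 and 7.53 in the lines and 6.28 to 6.55 on the Kusa4b10 arrays. The part of neuron-like cells was not tested. The smooth muscle list was at higher levels, with means of 9.41 to 9.59 in pre-osteoblasts, 8.63 to 9.09 in osteoblasts and 9.86 to 10.19 in osteosarcoma. Of its 7 markers, 4 fell in osteoblasts against pre-osteoblasts. That count was 0 to 2 without osteoblast replicate 1 or 3, without any 1 pre-osteoblast array or without line 1. In osteosarcoma 3 were higher than in osteoblasts and 1 higher than in pre-osteoblasts, with 0 lower in each. The part of smooth muscle-like cells was not tested.

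The windows before the start sites of 6 members with differences of more than 2-fold, picked after their values were seen, are shown so that their base composition and common promoter elements can be read directly. They are the 250 bases before the annotated start, 5′ to 3′ on the gene's strand, from RefSeq (GRCm38.p6), and for genes with several starts the one farthest upstream. Matches to the GC box GGGCGG or to the AP-1 site TGANTCA, on either strand, are in capitals. The windows lie at chr11:111065914-111066163 (+) for Kcnj2, chr14:20181783-20182032 (-) for Kcnk5, chr10:112269767-112270016 (+) for Kcnc2, chr5:49285660-49285909 (-) for Kcnip4, chr2:24763153-24763402 (-) for Cacna1b and chr14:24004206-24004455 (-) for Kcnma1.
Kcnj2: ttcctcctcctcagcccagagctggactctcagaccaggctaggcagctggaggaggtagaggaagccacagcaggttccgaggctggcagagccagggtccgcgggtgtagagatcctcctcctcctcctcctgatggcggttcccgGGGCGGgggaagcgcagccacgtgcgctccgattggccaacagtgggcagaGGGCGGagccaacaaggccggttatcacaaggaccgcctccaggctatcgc
Kcnk5: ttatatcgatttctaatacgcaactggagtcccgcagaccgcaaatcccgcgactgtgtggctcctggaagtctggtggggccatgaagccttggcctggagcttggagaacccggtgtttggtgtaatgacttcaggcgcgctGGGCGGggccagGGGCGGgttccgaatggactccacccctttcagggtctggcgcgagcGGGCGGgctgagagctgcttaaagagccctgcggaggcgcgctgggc
Kcnc2: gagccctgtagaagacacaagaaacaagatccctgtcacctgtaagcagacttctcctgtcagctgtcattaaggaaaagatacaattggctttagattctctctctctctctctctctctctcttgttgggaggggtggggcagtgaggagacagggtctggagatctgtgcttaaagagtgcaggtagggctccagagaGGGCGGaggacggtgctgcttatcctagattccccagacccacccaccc
Kcnip4: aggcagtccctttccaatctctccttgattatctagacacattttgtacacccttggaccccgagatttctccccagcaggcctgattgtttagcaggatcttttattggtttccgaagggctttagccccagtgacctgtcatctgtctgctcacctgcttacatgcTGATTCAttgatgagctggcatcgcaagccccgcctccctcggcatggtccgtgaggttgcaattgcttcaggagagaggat
Cacna1b: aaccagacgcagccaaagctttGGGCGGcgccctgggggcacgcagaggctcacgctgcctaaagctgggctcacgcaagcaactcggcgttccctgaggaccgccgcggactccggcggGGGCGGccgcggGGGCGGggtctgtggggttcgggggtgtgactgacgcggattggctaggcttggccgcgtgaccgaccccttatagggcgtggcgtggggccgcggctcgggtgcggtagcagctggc
Kcnma1: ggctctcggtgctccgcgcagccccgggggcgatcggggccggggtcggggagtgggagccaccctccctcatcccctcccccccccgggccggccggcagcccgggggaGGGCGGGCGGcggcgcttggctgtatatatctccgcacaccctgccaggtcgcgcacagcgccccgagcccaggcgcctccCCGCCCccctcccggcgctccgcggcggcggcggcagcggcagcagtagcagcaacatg

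Kcnj2 and Kcnk5, both higher in the tumour lines, have windows with 65.6% and 62.8% G or C and with 14 and 19 CpG dinucleotides. Kcnc2 and Kcnip4, both lower in the lines, have 52.4% and 51.2% and hold 2 and 6 CpG. Cacna1b, also lower in the lines than in pre-osteoblasts, and Kcnma1 have the richest of these windows, with 72.0% and 79.2% and with 29 and 31 CpG. Whether base content differs between higher and lower members was not tested. The median over 97 members with a window was 58.4% and 8 CpG, against 52.0% and 6 CpG over 27025 genes. The GC box stood in 45 of the 97 member windows (46.4%) and in 33.0% of all windows. Of the windows shown, Kcnj2 holds 2 matches, Kcnk5, Cacna1b and Kcnma1 hold 3 each, of which 2 overlap in Kcnma1, and Kcnc2 holds 1. Kcnip4 has the AP-1 letters once, 82 bases before its start, a match that 6.85% of all windows share. The windows were also searched for the TATA box TATAAA, in 7.22% of member windows and 13% of all, and for the RUNX site TGTGGT, in 13.4% and 14.2%. The CRE TGACGTCA, in 1.60% of all windows, and the left part of the RE1 site, TTCAGCACC, in 0.292%, gave 0 matches among the member windows, and the right part, GGACAGNGC, gave 1, with 1.52% over all windows. None of these stood in the windows shown. A match describes letters only.

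Most channel genes were at low levels. Of the 122 members, 38 (31.1%) were above the array median in at least 1 group, against 58.9% of all genes tested, and 23 were above it in all groups. The member just inside this limit was Kcnab3, at 7.55 in pre-osteoblasts, and the one just outside was Kcnk4, at 7.51 in osteoblasts. The other 84 members had group means between 5.21 and 7.51. With the median over all genes tested as the limit, 23 members were above it.

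**Figure D1:**
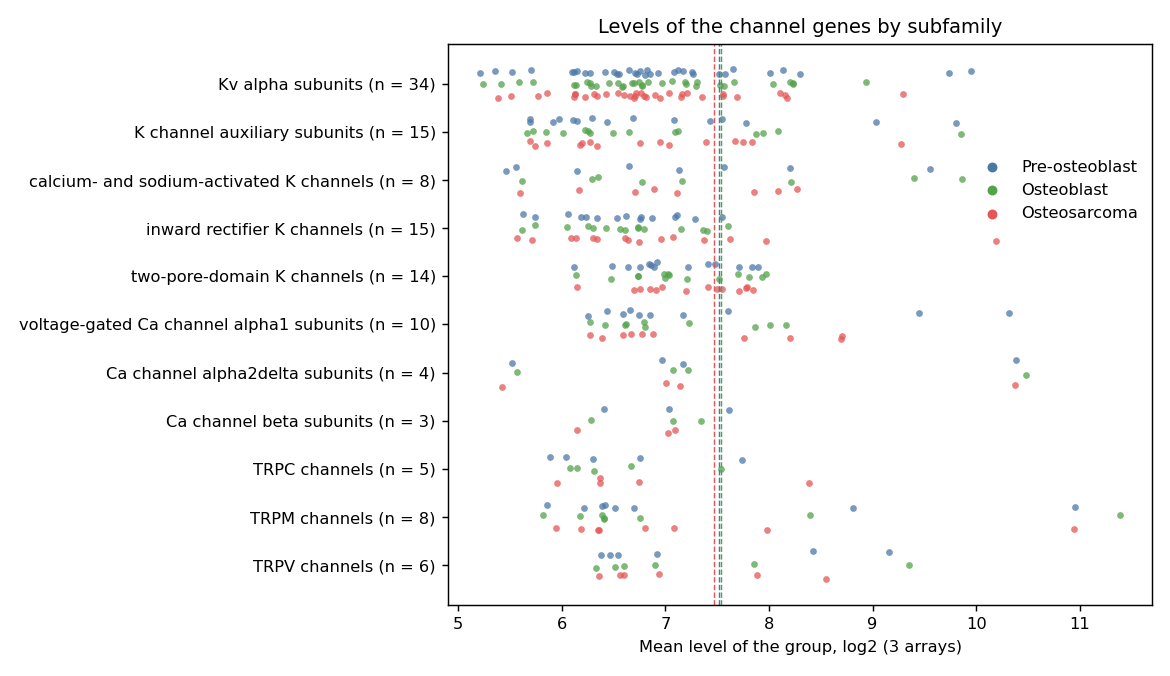
Mean log2 level of each of the 122 channel genes in each group, by subfamily (points, mean of 3 arrays). Dashed lines mark the array median of each group (7.47 to 7.53), and most points lie left of them.

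Between osteoblasts and pre-osteoblasts 16 of the 122 members were called, 8 higher and 8 lower, which is 13.1% of them against 26.1% of all genes tested (10.3% higher and 15.8% lower). Fewer cells of a type and less RNA per cell cannot be told apart in such samples. The count was 9 without any 1 pre-osteoblast array and 10 without osteoblast replicate 1 or 3. The number higher was 3 without any 1 pre-osteoblast array, 5 without osteoblast replicate 1 and 4 without replicate 2 or 3, and the number lower was 5 without osteoblast replicate 1. Between osteosarcoma and pre-osteoblasts 21 members were called (17.2%, against 23.5% of all genes), 8 higher and 13 lower, where 9.96% and 13.5% of all genes were. This split depended on scaling, and was 12 higher and 10 lower after quantile normalization again and 11 and 10 with the arrays centred. Between osteosarcoma and osteoblasts 21 were called (17.2%, against 27.4% of all genes), 11 higher and 10 lower, where 14.7% and 12.7% of all genes were. The number higher was 7 without osteoblast replicate 3. The F test over all groups called 27 members, 22.1% against 38.4% of all genes. Among genes whose mean level was above that of the median gene, the share of members called was below that of all such genes only between osteoblasts and pre-osteoblasts. Of the 18 members there, 38.9%, 61.1% and 50% were called in the comparisons as listed, against 46.2%, 40.3% and 47.0% of such genes, and 72.2% against 65.3% by the F test. The arrays of the compared groups did not overlap for 37, 31 and 34 members in these comparisons, that is 30.3%, 25.4% and 27.9% of them against 44.2%, 35.6% and 38.7% of all genes. The median size of the difference was 0.06, 0.07 and 0.08 over the members in these comparisons and 0.14, 0.14 and 0.15 over all genes. It was 0.16, 0.53 and 0.43 over the 38 members above the array median in some group. Over the 84 members below it in every group, it was 0.05, 0.06 and 0.05. The value over all members thus mostly describes genes at low levels, and no value is given for all genes at like levels. Both osteosarcoma comparisons share the 3 lines, and each Kusa4b10 group serves in 2 comparisons.

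Among the 34 pore-forming subunits of voltage-gated potassium channels, 8 were above the array median. In this subfamily 2 rose and 3 fell in osteoblasts against pre-osteoblasts, 2 were lower in osteosarcoma than in pre-osteoblasts, and 2 were higher and 1 lower than in osteoblasts. Of all genes tested, 10.3% rose and 15.8% fell in osteoblasts. In osteosarcoma 9.96% of all genes were higher and 13.5% lower than in pre-osteoblasts, and 14.7% higher and 12.7% lower than in osteoblasts. The 2 that rose became 0 without any 1 pre-osteoblast array or osteoblast replicate 3, and 1 without osteoblast replicate 1 or 2. Against pre-osteoblasts, osteosarcoma had 3 higher and 1 lower under both other scalings, 1 higher without line 1 or 3, and 1 lower without pre-osteoblast replicate 2 or 3, osteoblast replicate 3 or line 1 or 3. Against osteoblasts, 0 were higher without osteoblast replicate 3, 1 without any other Kusa4b10 array or line 2, and 2 were lower without line 3. Kcnc2 encodes a fast delayed rectifier known from fast-firing neurons. It was at 10.16, 9.88 and 9.81 in pre-osteoblasts, 9.04, 9.01 and 8.75 on the osteoblast arrays, and 6.58, 6.51 and 7.05 in the lines. The groups did not overlap, and each step down was larger than the spread within a group. Kcnc2 was 9.43-fold lower in osteosarcoma than in pre-osteoblasts (difference -3.24 ± 0.16, adjusted p = 2.22e-05), 4.66-fold lower than in osteoblasts (difference -2.22 ± 0.16, adjusted p = 7.97e-05), and 2.02-fold lower in osteoblasts than in pre-osteoblasts (difference -1.02 ± 0.16, adjusted p = 0.00234). All of these calls held with any 1 array left out.

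Kcnd1, a subunit of A-type potassium channels that inactivate quickly, followed another order. It was at 10.05, 9.42 and 9.75 in pre-osteoblasts, 8.02, 8.28 and 7.81 on the osteoblast arrays, and 9.61, 8.59 and 9.67 in the lines. Its osteoblast values lay below all others, while lines 1 and 3 lay within the pre-osteoblast range. Kcnd1 fell by 1.70 ± 0.29 in osteoblasts (3.24-fold, adjusted p = 0.00367) and was 1.25 ± 0.29 higher in osteosarcoma than in osteoblasts (adjusted p = 0.0140, and 0.0565 without osteoblast replicate 3). Osteosarcoma and pre-osteoblasts differed by -0.45 ± 0.29 (adjusted p = 0.343). Kcng2, a silent subunit that modifies other channels, was at 7.98 to 8.04 in pre-osteoblasts and 8.12 to 8.28 in osteoblasts, a rise of 0.19 ± 0.05 (adjusted p = 0.0364). That call was lost without any 1 pre-osteoblast array and without osteoblast replicate 2 or 3 (adjusted p 0.0589 to 0.114), and with genes above the median level only (0.0511). It was also lost in a fit of the Kusa4b10 arrays with a replicate block (0.104). Against pre-osteoblasts, osteosarcoma was at 0.16 ± 0.05 (adjusted p = 0.0656), and passed under both other scalings (0.0150 and 0.0209). The remaining members above the array median, Kcna3, Kcng1, Kcnh2, Kcnh4 and Kcns3, were not called in any comparison.

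Of 15 auxiliary subunits of potassium channels, 7 were above the array median. In osteoblasts 2 rose and 2 fell against pre-osteoblasts, and in osteosarcoma 3 were higher and 3 lower than in pre-osteoblasts and 3 higher and 4 lower than in osteoblasts. The 2 that rose became 1 without any 1 Kusa4b10 array or line 1 and under both other scalings, and the 2 that fell became 1 without pre-osteoblast or osteoblast replicate 1. The 4 lower than in osteoblasts became 2 without any 1 osteoblast array or line 2, with the arrays centred, and in a fit of the compared groups alone. The shares of all genes called are those given above for each comparison. Kcnip4 encodes a calcium-binding partner of A-type channels, a KChIP protein. It was at 9.64, 8.50 and 8.96 in pre-osteoblasts, 7.87, 7.97 and 7.77 on the osteoblast arrays, and 6.35, 6.09 and 6.09 in the lines. As for Kcnc2, the groups formed descending steps without overlap, with pre-osteoblast replicate 1 the highest array. Kcnip4 was 7.26-fold lower in osteosarcoma than in pre-osteoblasts (difference -2.86 ± 0.24, adjusted p = 1.95e-04), 3.24-fold lower than in osteoblasts (difference -1.70 ± 0.24, adjusted p = 0.00146), and 2.24-fold lower in osteoblasts than in pre-osteoblasts (difference -1.16 ± 0.24, adjusted p = 0.00896). Its relative Kcnip3, which also acts as a calcium-dependent repressor of transcription, was at 9.69 to 9.91 in pre-osteoblasts, 9.69 to 10.14 in osteoblasts and 9.02 to 9.66 in the lines. Kcnip3 was lower in osteosarcoma than in osteoblasts (difference -0.58 ± 0.18, adjusted p = 0.0451). The call was lost without any 1 Kusa4b10 array and without line 2 or 3 (adjusted p 0.0621 to 0.135), with the arrays centred (0.0725), with array weights (0.0515) and with only these groups in the fit (0.104). Against pre-osteoblasts, Kcnip3 was lower in the lines by a like amount that was not called. That difference passed with genes above the median level only (-0.53, adjusted p = 0.0444) and without line 1 (-0.73, 0.0121).

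The cytoplasmic beta subunits, which bind voltage-gated potassium channels and resemble oxidoreductases, divided by gene. Kcnab1 was at 6.69, 6.67 and 6.68 in pre-osteoblasts, 6.72, 6.67 and 6.55 on the osteoblast arrays, and 7.50, 7.49 and 8.02 in the lines. It was higher in every line than on any Kusa4b10 array, by 0.99 ± 0.14 against pre-osteoblasts (adjusted p = 0.00151) and 1.02 ± 0.14 against osteoblasts (adjusted p = 9.77e-04). Kcnab2 was at 7.01 to 7.21 in pre-osteoblasts, 7.01 to 7.26 in osteoblasts and 8.04, 7.45 and 8.03 in the lines. It was higher in osteosarcoma than in either Kusa4b10 group (0.75 ± 0.16 and 0.72 ± 0.16, both adjusted p = 0.0104). Kcnab3 went the other way, at 7.65, 7.56 and 7.42 in pre-osteoblasts, 7.05 to 7.13 in osteoblasts and 6.74 to 7.15 in the lines. It fell by 0.46 ± 0.11 in osteoblasts (adjusted p = 0.0139) and was lower in osteosarcoma than in pre-osteoblasts (difference -0.60 ± 0.11, adjusted p = 0.00477). The osteoblast call was lost without pre-osteoblast replicate 1 (0.0501) or osteoblast replicate 1 (0.0529).

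The large-conductance, calcium-activated potassium channel (BK) is built from Kcnma1, its pore, and the Kcnmb subunits that tune its calcium response. Kcnma1 was at 7.67, 7.54 and 7.50 in pre-osteoblasts and 9.61, 10.61 and 9.38 in osteoblasts. The lines ranged from 6.33 in line 2 through 8.41 in line 1 to 9.53 in line 3, so osteoblasts lay above all pre-osteoblasts while the lines spanned nearly the whole range. Kcnma1 rose 4.92-fold in osteoblasts (difference 2.30 ± 0.71, adjusted p = 0.0453). This call was lost without any 1 Kusa4b10 array or line 1 (adjusted p 0.0632 to 0.139), with differences of 1.93 to 2.54. Against osteoblasts, osteosarcoma was at -1.78 ± 0.71 (adjusted p = 0.104, and -2.50 with 0.0185 without line 3), and against pre-osteoblasts at 0.52 ± 0.71 (adjusted p = 0.676, and 1.40 with 0.0463 without line 2 or -0.20 with 0.860 without line 3). A further probe set that carries this symbol was at 5.73 to 5.82 in all groups and differed by -0.03 between osteoblasts and pre-osteoblasts, so the probe sets of Kcnma1 disagree. Their mean gave 1.13 (adjusted p = 0.0379).

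Kcnmb4, a BK beta subunit, moved with a smaller spread. It was at 7.42, 7.45 and 7.44 in pre-osteoblasts, 8.28, 7.85 and 8.14 on the osteoblast arrays, and 6.86, 7.06 and 7.19 in the lines. The groups did not overlap, with osteoblasts highest and the lines lowest. Kcnmb4 rose by 0.66 ± 0.12 in osteoblasts (adjusted p = 0.00468) and was 2.07-fold lower in osteosarcoma than in osteoblasts (difference -1.05 ± 0.12, adjusted p = 5.04e-04). Against pre-osteoblasts osteosarcoma was lower by a smaller amount (difference -0.40 ± 0.12, adjusted p = 0.0449), a call lost without any 1 pre-osteoblast array, osteoblast replicate 3 or line 1 or 2 (adjusted p 0.0698 to 0.130), and with array weights (0.0738) and under both other scalings (0.0674 and 0.0727). Kcnmb3, another beta subunit, was at 7.72 to 7.81, 7.91 to 7.98 and 7.70 to 7.81 in the same order of groups. Its differences were small, 0.17 ± 0.05 for osteoblasts against pre-osteoblasts (adjusted p = 0.0462) and -0.20 ± 0.05 for osteosarcoma against osteoblasts (adjusted p = 0.0260). The former call was lost without any 1 Kusa4b10 array or line 1 (0.0617 to 0.143), the latter without any 1 osteoblast array or line 1 or 2 (0.0505 to 0.0752) or with only these groups in the fit (0.0542), and both under both other scalings (0.0609 to 0.113). In a fit of the Kusa4b10 arrays with a replicate block, the former was lost too (0.112).

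The other calcium-activated channels above the array median were lower in the tumour lines. Kcnn4, the intermediate-conductance channel known for supporting proliferation and calcium entry, was at 9.48, 9.56 and 9.63 in pre-osteoblasts, 9.26, 9.63 and 9.30 on the osteoblast arrays, and 8.45, 8.50 and 7.85 in the lines. Every line lay below every Kusa4b10 array. Kcnn4 was 2.44-fold lower in osteosarcoma than in pre-osteoblasts (difference -1.29 ± 0.18, adjusted p = 0.00148) and 2.19-fold lower than in osteoblasts (difference -1.13 ± 0.18, adjusted p = 0.00206). Kcnn1, a small-conductance channel, was at 7.82 to 7.89 in the lines and 8.08 to 8.32 on the Kusa4b10 arrays (difference -0.35 ± 0.08, adjusted p = 0.0118 against pre-osteoblasts, and -0.36 ± 0.08, adjusted p = 0.00852 against osteoblasts).

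**Figure D2:**
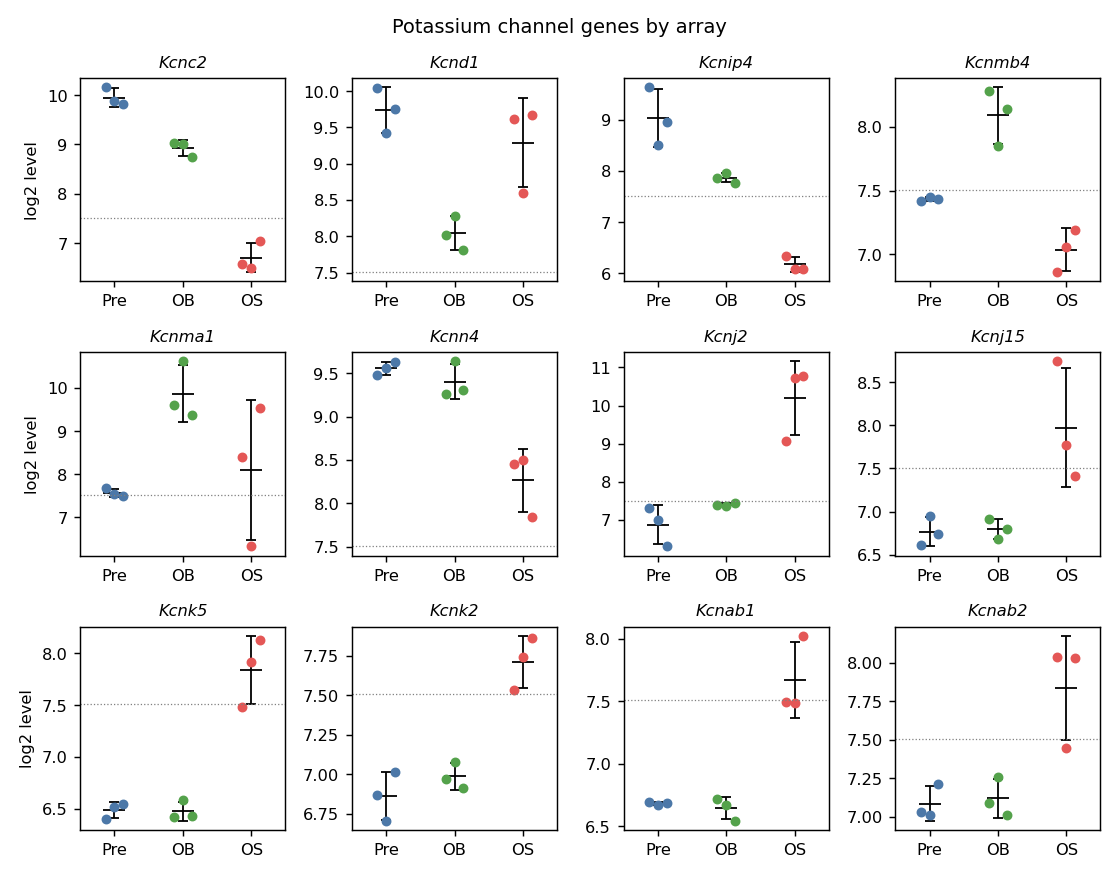
Log2 level of 12 potassium channel genes on each array (points), with the mean and SD of 3 arrays (bars), in pre-osteoblasts (Pre), osteoblasts (OB) and osteosarcoma lines (OS, lines 1 to 3 from left to right). The dotted line is the mean of the group array medians, and each panel has its own axis. Kcnj2 stands at 9.08 to 10.77 in the lines, while Kcnc2 and Kcnip4 descend over the groups.

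Inward rectifiers pass potassium more easily inward and set the resting voltage. Of 15 measured, 3 were above the array median, and the 2 that were called were higher in the tumour lines. Of all genes tested, 9.96% were higher in osteosarcoma than in pre-osteoblasts and 14.7% higher than in osteoblasts. Kcnj2 encodes a strong rectifier known for its role in muscle and in skeletal development. It was at 7.31, 6.99 and 6.30 in pre-osteoblasts, 7.40, 7.35 and 7.45 on the osteoblast arrays, and 9.08, 10.73 and 10.77 in the lines. All lines were far above all Kusa4b10 arrays, and line 1 was the lowest of them. Kcnj2 was higher in osteosarcoma than in pre-osteoblasts by 10-fold (difference 3.32 ± 0.44, adjusted p = 0.00129) and higher than in osteoblasts by 6.93-fold (difference 2.79 ± 0.44, adjusted p = 0.00226), calls that held with any 1 array left out. It was the largest rise among the members above the array median in either comparison. Osteoblasts and pre-osteoblasts differed by 0.53 ± 0.44 (adjusted p = 0.458).

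Kcnj15, a weaker rectifier described in kidney and pancreas, was at 6.61, 6.95 and 6.74 in pre-osteoblasts, 6.91, 6.68 and 6.79 on the osteoblast arrays, and 8.74, 7.77 and 7.41 in the lines. Here line 1 was the highest, against the order of Kcnj2, and all lines were above the Kusa4b10 arrays. Kcnj15 was higher by 1.21 ± 0.29 against pre-osteoblasts (adjusted p = 0.0190) and 1.18 ± 0.29 against osteoblasts (adjusted p = 0.0180). The former call was lost without pre-osteoblast replicate 1 (0.0670) or 3 (0.0605), the latter without osteoblast replicate 2 (0.0570) or 3 (0.0563), and both when only the compared groups entered the fit (0.0626 and 0.0559). Kcnj11, a pore of the ATP-sensitive channel, was above the array median and was not called.

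Tandem-pore-domain channels give a background potassium leak. Of 14 measured, 6 were above the array median in some group. Kcnk5, an acid- and volume-sensitive leak channel, was at 6.40, 6.51 and 6.55 in pre-osteoblasts, 6.42, 6.58 and 6.42 on the osteoblast arrays, and 7.48, 7.92 and 8.13 in the lines. The lines lay well above the Kusa4b10 arrays, which did not separate from each other. Kcnk5 was higher in osteosarcoma than in pre-osteoblasts by 2.56-fold (difference 1.36 ± 0.15, adjusted p = 5.32e-04) and higher than in osteoblasts by 2.58-fold (difference 1.37 ± 0.15, adjusted p = 4.05e-04). Kcnk2, a leak channel opened by stretch and lipids, was at 6.87, 6.71 and 7.01 in pre-osteoblasts, 6.97, 7.08 and 6.91 on the osteoblast arrays, and 7.54, 7.74 and 7.86 in the lines. It was higher in every line than on any Kusa4b10 array, by 0.85 ± 0.11 (adjusted p = 9.16e-04) and 0.73 ± 0.11 (adjusted p = 0.00154). Kcnk12 was highest in osteoblasts, at 7.78 to 7.85, against 7.37 to 7.46 in pre-osteoblasts and 7.39 to 7.55 in the lines. It rose by 0.39 ± 0.06 in osteoblasts (adjusted p = 0.00215) and was lower in osteosarcoma than in osteoblasts (difference -0.31 ± 0.06, adjusted p = 0.00611). Kcnk3, an acid-sensitive leak channel, was at 7.73 to 8.06 on all arrays, and osteosarcoma and osteoblasts differed by -0.20 ± 0.06 (adjusted p = 0.0530, and 0.0425 without osteoblast replicate 2 or 0.0308 without line 3). Kcnk6 and Kcnk15 were not called.

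Voltage-gated calcium channels consist of a pore, the alpha1 subunit, with alpha2delta and beta subunits that carry it to the membrane. Of 10 alpha1 genes, 4 were above the array median. Cacna1b, the N-type channel known from nerve terminals, was at 10.93, 10.02 and 10.01 in pre-osteoblasts, 7.75, 8.28 and 7.99 on the osteoblast arrays, and 8.40, 7.45 and 8.74 in the lines. Pre-osteoblasts were far above the other groups, which overlapped. Cacna1b fell by 2.31 ± 0.36 in osteoblasts (4.97-fold, adjusted p = 0.00228) and was 4.35-fold lower in osteosarcoma than in pre-osteoblasts (difference -2.12 ± 0.36, adjusted p = 0.00402). Osteosarcoma and osteoblasts differed by 0.19 ± 0.36 (adjusted p = 0.757).

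Cacna1c, the L-type channel of heart and smooth muscle and a channel described in osteoblasts, was at 9.44, 9.58 and 9.34 in pre-osteoblasts, 7.82, 7.88 and 7.90 on the osteoblast arrays, and 8.58, 8.36 and 9.19 in the lines. The groups did not overlap, and the lines stood between the Kusa4b10 states. Cacna1c fell by 1.58 ± 0.19 in osteoblasts (3.00-fold, adjusted p = 5.99e-04) and was higher in osteosarcoma than in osteoblasts (difference 0.84 ± 0.19, adjusted p = 0.0108). It was lower in osteosarcoma than in pre-osteoblasts (difference -0.75 ± 0.19, adjusted p = 0.0215), a call lost without pre-osteoblast replicate 1 (0.0612) or 2 (0.0729) or line 1 (0.0676), and in a fit of these groups alone (0.0693). Cacna1g, a T-type channel that opens near the resting voltage, was at 7.65, 7.56 and 7.60 in pre-osteoblasts, 7.97, 8.55 and 7.99 on the osteoblast arrays, and 8.65, 7.85 and 9.57 in the lines. All osteoblast arrays and lines were above all pre-osteoblast arrays, but the differences, 0.56 ± 0.38 for osteoblasts (adjusted p = 0.343) and 1.08 ± 0.38 for osteosarcoma (adjusted p = 0.0736), did not pass. Without line 2, osteosarcoma was higher by 1.51 against pre-osteoblasts (adjusted p = 0.00675) and by 0.94 against osteoblasts (0.0377). With only the Kusa4b10 groups in the fit, the osteoblast difference had an adjusted p of 0.0386, and with genes above the median level only, the osteosarcoma difference against pre-osteoblasts had one of 0.0434. Cacna1a, the P/Q-type channel known from nerve terminals, was above the array median in osteosarcoma and was not called.

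Cacna2d1, an alpha2delta subunit, was at 10.14 to 10.56 in pre-osteoblasts, 10.38 to 10.62 in osteoblasts and 9.95 to 10.71 in the lines. The groups overlapped throughout, and its differences of 0.10, -0.01 and -0.11 (SE 0.19) did not pass (adjusted p 0.729 to 0.969). Its other probe set gave -0.27 for osteoblasts against pre-osteoblasts, of the opposite sign. For osteosarcoma that probe set gave -0.33 against pre-osteoblasts and -0.06 against osteoblasts. Cacnb1, the only measured beta subunit above the array median in some group, was at 7.68, 7.49 and 7.66 in pre-osteoblasts, 7.34 to 7.35 in osteoblasts and 6.88 to 7.22 in the lines. It was lower in osteosarcoma than in pre-osteoblasts (difference -0.52 ± 0.10, adjusted p = 0.00585). Osteoblasts were at -0.27 ± 0.10 (adjusted p = 0.0788), and this difference passed without line 2 (0.0169), with array weights (0.0272) and with only the Kusa4b10 groups in the fit (0.0224).

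TRP channels gave 5 members above the array median among 19 measured. Trpm7, a magnesium- and calcium-permeable channel fused to a kinase and present in most tissues, was at 11.04, 10.90 and 10.92 in pre-osteoblasts, 11.53, 11.19 and 11.46 on the osteoblast arrays, and 10.98, 10.98 and 10.88 in the lines. Osteoblasts lay above both other groups, with replicate 2 the lowest of them. Trpm7 rose by 0.44 ± 0.09 in osteoblasts (1.35-fold, adjusted p = 0.00875) and was lower in osteosarcoma than in osteoblasts (difference -0.45 ± 0.09, adjusted p = 0.00722). Trpm4, a calcium-activated cation channel that does not pass calcium, was at 9.06, 8.68 and 8.70 in pre-osteoblasts, 8.30, 8.58 and 8.30 on the osteoblast arrays, and 8.10, 7.71 and 8.15 in the lines. The groups descended without overlap, but only the difference between osteosarcoma and pre-osteoblasts was called with all arrays. Trpm4 was lower in osteosarcoma than in pre-osteoblasts (difference -0.83 ± 0.15, adjusted p = 0.00569), while osteoblasts were at -0.42 ± 0.15 against pre-osteoblasts (adjusted p = 0.0801, and 0.0377 without line 2 or 0.0403 with array weights).

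Trpv2, a stretch-responsive channel, was at 9.26, 9.17 and 9.05 in pre-osteoblasts, 9.28, 9.37 and 9.40 on the osteoblast arrays, and 8.57, 8.24 and 8.84 in the lines. Every line lay below every Kusa4b10 array. Trpv2 was lower in osteosarcoma than in osteoblasts (difference -0.80 ± 0.14, adjusted p = 0.00345) and than in pre-osteoblasts (difference -0.61 ± 0.14, adjusted p = 0.0148, and 0.0555 without pre-osteoblast replicate 1 or 0.0509 with only these groups in the fit). Trpv4, an osmotic and mechanical sensor whose mutations cause skeletal dysplasia, was at 8.57, 8.32 and 8.37 in pre-osteoblasts, 7.67, 8.09 and 7.81 on the osteoblast arrays, and 8.16, 7.56 and 7.94 in the lines. Pre-osteoblasts were highest, by 0.57 ± 0.16 over osteoblasts (adjusted p = 0.0348) and 0.54 ± 0.16 over osteosarcoma (adjusted p = 0.0476). The former call was lost without any 1 pre-osteoblast array or osteoblast replicate 1 or 3 (0.0651 to 0.123). The latter was lost without any of these arrays or line 2 or 3 (0.0575 to 0.15), under both other scalings (0.0710 and 0.0715), with array weights (0.0592) and with only these groups in the fit (0.0772). Trpc1, a subunit of receptor-operated cation channels, was at 7.62 to 7.85 in pre-osteoblasts, 7.46 to 7.64 in osteoblasts and 8.45, 8.97 and 7.74 in the lines. It was higher in osteosarcoma than in osteoblasts (difference 0.85 ± 0.26, adjusted p = 0.0428), a call lost without any 1 Kusa4b10 array or line 1 or 2 (0.0648 to 0.121) and with only these groups in the fit (0.106). Against pre-osteoblasts it was at 0.65 ± 0.26 (adjusted p = 0.117), and at 0.97 without line 3 (0.00424).

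**Figure D3:**
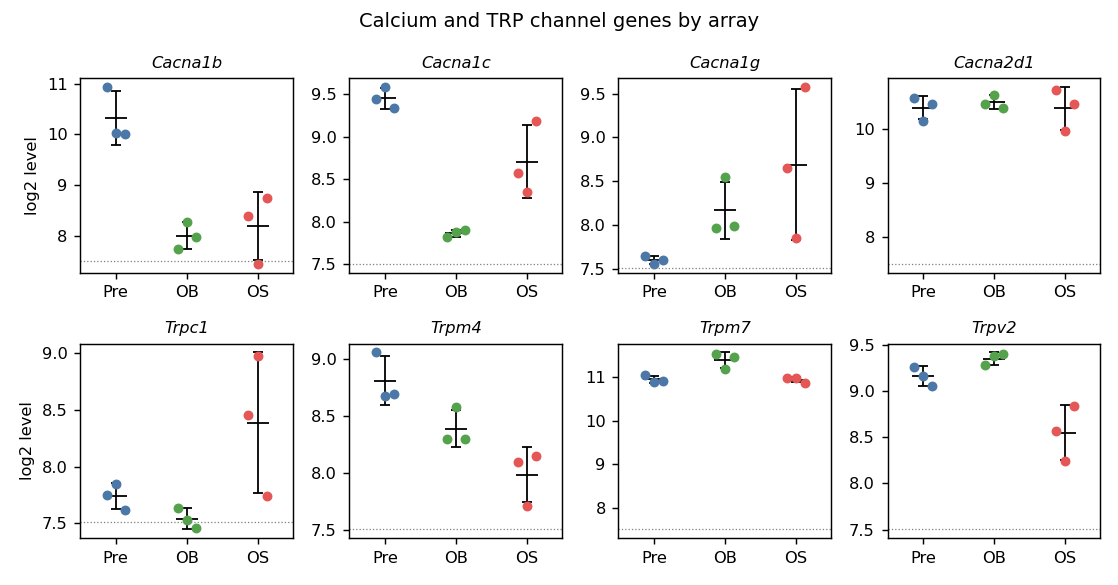
Log2 level of 8 calcium and TRP channel genes on each array (points), with the mean and SD of 3 arrays (bars), for the groups Pre, OB and OS, with lines 1 to 3 from left to right. The dotted line is the mean of the group array medians, and axes differ between panels. Cacna1b and Cacna1c are highest in pre-osteoblasts, at 10.01 to 10.93 and 9.34 to 9.58.

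The differences of the named members, set side by side, show how the comparisons divide. Kcnj2, Kcnj15, Kcnk5, Kcnk2, Kcnab1 and Kcnab2 had positive calls in both osteosarcoma comparisons. Their differences between the Kusa4b10 states were 0.13 or less in size for all but Kcnj2 (0.53). Kcnn4, Kcnn1, Trpv2, Kcnmb4, Kcnc2 and Kcnip4 had negative calls in both. Calls of Kcnj15, Trpv2 and Kcnmb4 were lost in some alternatives, as given above. Cacna1b, Cacna1c and Kcnd1 had their largest differences between osteoblasts and pre-osteoblasts, and Kcnc2 and Kcnip4 between osteosarcoma and pre-osteoblasts.

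**Figure D4:**
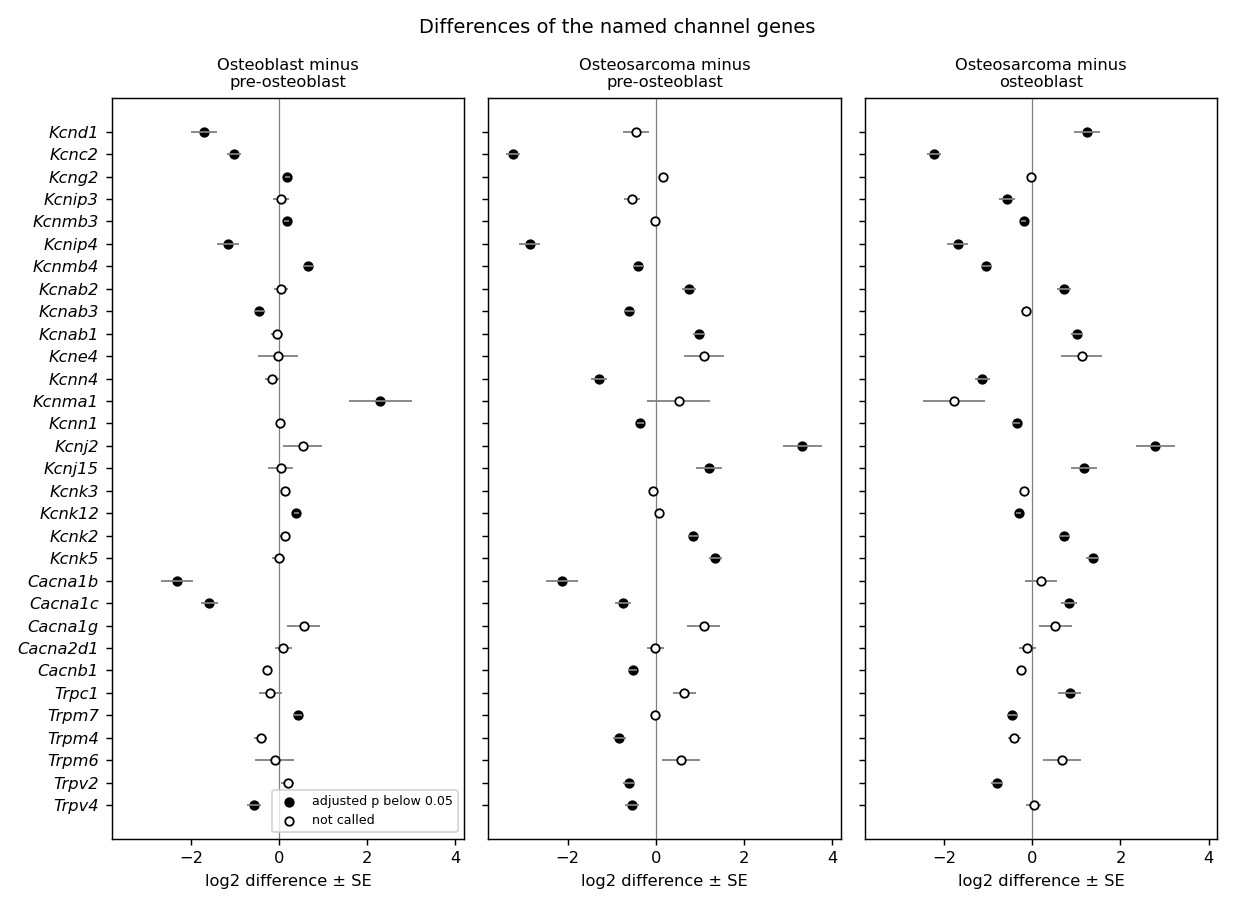
Log2 difference with its standard error for the 31 named channel genes in the 3 comparisons, ordered by subfamily. Filled points have an adjusted p below 0.05 and open points do not, and Kcnj2 (3.32 and 2.79) and Kcnc2 (-3.24 and -2.22) lie farthest from 0 in the osteosarcoma comparisons.

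The median SD of the members was larger over the tumour lines, at 0.101, than over pre-osteoblast (0.0711) and osteoblast arrays (0.0754), and over all genes it was 0.118, 0.0872 and 0.0823. Each line has 1 array, so differences between lines carry no test. The SD over the lines exceeded 0.5 for 12 members (9.84%, against 5.39% of all genes tested), while this held for 3 members in pre-osteoblasts (2.46%, against 1.00%) and 1 in osteoblasts (0.820%, against 1.51%). The widest range belonged to Kcnma1, with 3.20 between lines 2 and 3. Kcne4, a single-span subunit that inhibits some voltage-gated channels, was at 8.53 in line 1, 6.28 in line 2 and 7.36 in line 3, against 6.17 to 6.37 on the Kusa4b10 arrays. Line 2 thus stood at the Kusa4b10 level and line 1 far above it. Without line 2, Kcne4 was higher in osteosarcoma by 1.65 against pre-osteoblasts (adjusted p = 0.00579) and by 1.68 against osteoblasts (0.00454), and with all lines it was at 1.09 ± 0.46 (adjusted p = 0.134) and 1.12 ± 0.46 (0.113). Trpm6, a magnesium channel of kidney and gut, was at 8.30 in line 2, against 6.35 and 6.60 in lines 1 and 3 and 6.29 to 6.64 on the Kusa4b10 arrays. Only line 2 was above the array median for Trpm6, and its osteosarcoma differences, 0.57 ± 0.44 and 0.67 ± 0.44, did not pass (adjusted p = 0.420 and 0.318). Cacna1g and Kcnj2 ranged over 1.72 and 1.69.

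**Figure D5:**
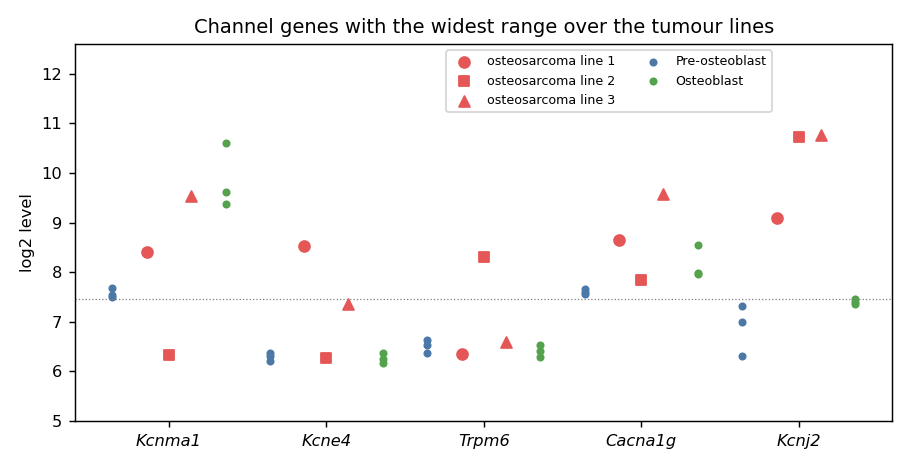
Log2 level of the 5 channel genes with the widest range over the osteosarcoma lines among those above the array median in at least 1 line. Large symbols are single lines, small points the Kusa4b10 arrays, and the dotted line is the osteosarcoma array median (7.47). Kcnma1 spans 6.33 to 9.53, and Trpm6 is high only in line 2.

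Of the 84 members that stayed at or below the array median, 5 (5.95%) were called in some comparison, against 9.95% of all genes at such levels and 42.0% of all genes tested. They are named here after their values were seen. Kcnt2, a sodium-activated potassium channel, was at 5.51 to 5.64 in pre-osteoblasts, 6.08 to 6.70 in osteoblasts and 6.54 to 7.37 in the lines (difference 1.34 ± 0.22, adjusted p = 0.00356 for osteosarcoma against pre-osteoblasts). Its osteoblast rise of 0.79 ± 0.22 (adjusted p = 0.0312) was lost without any 1 pre-osteoblast array or osteoblast replicate 2 or 3 (0.0659 to 0.0959). Kcnip1, another KChIP gene, was at 6.32 to 7.12 in the lines and 5.78 to 5.98 on the Kusa4b10 arrays, higher by 0.85 ± 0.17 (adjusted p = 0.00964) and 0.91 ± 0.17 (0.00552). Kcnip1 therefore moved opposite to Kcnip4. Kcnh1, Kcnh3 and Kcnq5, all voltage-gated, differed by 0.49 or less in size, with calls that were lost without several single arrays. Kcnh1 was lower in osteoblasts (adjusted p = 0.0320, and 0.0771 to 0.113 without pre-osteoblast replicate 2 or 3 or osteoblast replicate 1 or 3) and in osteosarcoma (0.0447, and 0.0708 to 0.145 without the same pre-osteoblast arrays, osteoblast replicate 3 or line 1 or 3) than in pre-osteoblasts. The osteosarcoma call was also lost under both other scalings (0.0786 in each), with array weights (0.0899) and with only these groups in the fit (0.0729). Kcnh3 rose in osteoblasts against pre-osteoblasts (0.0266, and 0.0583 to 0.0920 without any 1 pre-osteoblast array or osteoblast replicate 1 or 3). The Kcnh3 call was also lost in a fit of the Kusa4b10 arrays with a replicate block (0.0582). Kcnq5 was higher in osteosarcoma than in osteoblasts (0.0367, and 0.0550 to 0.104 without any 1 Kusa4b10 array or line 2 or 3, or 0.0953 with only these groups in the fit), and than in pre-osteoblasts under both other scalings (0.0399 and 0.0476) or without line 1 (0.00288).

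Genes that handle calcium and potassium beside these channels were counted by list. Of all genes tested, 10.3% were higher and 15.8% lower in osteoblasts than in pre-osteoblasts. In osteosarcoma 9.96% were higher and 13.5% lower than in pre-osteoblasts, and 14.7% higher and 12.7% lower than in osteoblasts. The lists are small, and some of their counts lie near these shares. Of 10 genes of store-operated entry and calcium release, 5 were lower and 1 higher in osteosarcoma in each comparison. The calcium release channel Itpr2 was at 9.34 to 9.69 in the lines and 10.51 to 11.08 on the Kusa4b10 arrays (difference -1.14 ± 0.15, adjusted p = 0.00127 against pre-osteoblasts). The store-operated pore gene Orai3 was also lower against them (difference -1.05 ± 0.11, adjusted p = 3.90e-04). It was the 1 gene of this list called between osteoblasts and pre-osteoblasts (difference -0.42 ± 0.11, adjusted p = 0.0212), a call lost without pre-osteoblast replicate 1 or 2 or osteoblast replicate 2 (0.0650 to 0.0680).

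Of 11 calcium pumps and exchangers, 5 were called in osteoblasts against pre-osteoblasts, all higher. In osteosarcoma 3 were higher and 1 lower than in pre-osteoblasts, and 1 higher and 6 lower than in osteoblasts. The plasma membrane sodium-calcium exchanger Slc8a1 was at 7.55, 6.06 and 7.28 in the lines and 9.12 to 9.87 on the Kusa4b10 arrays, far below in every line (difference -2.61 ± 0.36, adjusted p = 0.00164 against pre-osteoblasts). The mitochondrial exchanger Slc8b1 was highest in osteoblasts, at 9.77 to 10.54, against 8.09 to 8.24 in pre-osteoblasts (difference 2.06 ± 0.20, adjusted p = 2.65e-04).

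Of 13 other calcium-permeable or mechanosensitive channels, 4 were higher and 1 lower in osteoblasts than in pre-osteoblasts. In osteosarcoma 2 were higher and 3 lower than in pre-osteoblasts, and 1 higher and 6 lower than in osteoblasts. Without pre-osteoblast replicate 3, 1 was higher in the former, and in the latter 0 were higher without that array or osteoblast replicate 1 or 3, and 3 under both other scalings. The endolysosomal channel Tpcn1 rose by 2.34 ± 0.21 in osteoblasts (adjusted p = 1.61e-04) and the ATP-gated P2rx5 fell by 1.60 ± 0.15 (adjusted p = 2.52e-04).

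Among 10 genes for calcium channel gamma subunits and RGK proteins, small GTPases that inhibit calcium channels, Cacng7 and Rrad had the largest differences. Cacng7, a gamma subunit, was at 9.70 to 9.98 in the lines and 7.89 to 8.22 on the Kusa4b10 arrays (difference 1.67 ± 0.10, adjusted p = 5.28e-05 against pre-osteoblasts). The RGK gene Rrad, at 9.17 to 9.35 in pre-osteoblasts, fell to 7.44 to 7.87 in osteoblasts (difference -1.62 ± 0.12, adjusted p = 6.67e-05) and was at 7.85 to 8.08 in the lines. In this list 1 gene was lower in osteoblasts than in pre-osteoblasts, 2 were higher and 1 lower in osteosarcoma than in pre-osteoblasts, and 1 was higher than in osteoblasts. The number higher was 1 without any 1 Kusa4b10 array against pre-osteoblasts, and 2 without osteoblast replicate 2 or line 2 against osteoblasts, where Rrad joined.

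Of 16 calcineurin, NFAT and calmodulin genes, 2 were higher and 4 lower in osteoblasts than in pre-osteoblasts, and the 2 higher became 0 without pre-osteoblast replicate 3 or osteoblast replicate 1 or 3, and 1 without any other Kusa4b10 array. In osteosarcoma 4 were higher and 1 lower than in pre-osteoblasts (3 lower without osteoblast replicate 2 or line 2), and 5 higher and 1 lower than in osteoblasts (0 lower without osteoblast replicate 2 or 3 or line 1 or 3). The calcineurin regulator Rcan2 was at 8.93 to 10.03 in the lines and 7.86 to 8.22 on the Kusa4b10 arrays (difference 1.33 ± 0.25, adjusted p = 0.00638 against pre-osteoblasts).

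Of 6 potassium pump and cotransporter genes, 2 were higher and 3 lower in osteoblasts than in pre-osteoblasts (1 higher without pre-osteoblast replicate 2 or 3 or osteoblast replicate 1 or 3). In osteosarcoma 2 were higher and 2 lower than in pre-osteoblasts, and 1 higher and 2 lower than in osteoblasts (2 higher without line 2, and 4 lower after quantile normalization again). Atp1b1, a subunit of the sodium-potassium pump, was at 9.0 to 9.29 in pre-osteoblasts, 6.55 to 7.07 in osteoblasts and 9.58 to 11.87 in the lines. It fell by 2.39 ± 0.48 in osteoblasts (adjusted p = 0.00742) and was higher in osteosarcoma than in osteoblasts by 4.0 ± 0.48 (adjusted p = 6.32e-04). Its rise against pre-osteoblasts, 1.61 ± 0.48 (adjusted p = 0.0437), was lost without any 1 Kusa4b10 array or line 1 or 2 (0.0620 to 0.124), and the number higher was then 0 without pre-osteoblast replicate 2 or 3 and otherwise 1. The potassium-chloride cotransporter Slc12a7 descended from 10.51 to 10.98 in pre-osteoblasts through 9.58 to 9.70 in osteoblasts to 8.16 to 8.46 in the lines (difference -2.36 ± 0.13, adjusted p = 3.63e-05 for osteosarcoma against pre-osteoblasts). Of 8 partner proteins of potassium channels, limma called 0 in each comparison, with 0, 0 and 1 at an unadjusted p below 0.05, and none was above the array median. Without osteoblast replicate 2, 1 of them was called lower in osteosarcoma than in osteoblasts.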

How the data were processed

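RNA of 9 samples was hybridised to Affymetrix gene arrays, 1 array per sample and 3 per group. The authors deposited log2 values per probe set, made with RMA, with mm9 as the genome build per the submitters' processing notes; background correction, scaling and summarization were thus done before deposit. RMA makes arrays alike in distribution, so a change in the level of most genes at once would not be seen. Of 35556 probe sets, 21789 carried 1 gene symbol in GEO's platform annotation, 1621 several and 12146 none. Only those with 1 symbol were used, and each gene was read from its probe set of highest mean level. Symbols were matched through gene IDs to RefSeq (GRCm38.p6), where all 122 members matched and 0 changed name. Promoter windows come from that build and not from mm9, and 97 members had one.

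The values of 19938 genes were fitted with limma 3.58.1 under R 4.3.3 (eBayes after lmFit, group means of all 9 arrays, 6 residual and 2.19 prior degrees of freedom), with Benjamini-Hochberg adjustment over all genes. The script was tested on simulated data. Within a group, at most 4.33% of values were equal between arrays, so no array was a copy of another. Each array was counted as its own sample, but this check cannot show that the cultures were separate.

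Members named with values were the called ones with non-overlapping arrays and a group mean above the array median, up to 10 rises and 10 falls per comparison, the gene of highest mean level in each subfamily (a choice that sets different probe sets against each other), and the 5 with the widest range over the tumour lines. Of each partner list, genes with the largest called differences are given, and the marker lists cover osteoblasts, adipocytes, muscle types, neurons, blood, endothelial and epithelial cells and mitosis. Members and lists were chosen with earlier results of these data known. Alternatives were a filter on low genes, averaging each gene's probe sets, other scalings, only the compared groups, array weights, a replicate block and leaving out each array.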

Additional observations from a re-analysis of the deposited data

How the results depend on the processing

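With only genes above the median level in the fit, 18 members were tested, and 7 (2 higher, 5 lower) were called between osteoblasts and pre-osteoblasts, 11 (2 higher) between osteosarcoma and pre-osteoblasts, 9 (3 higher, 6 lower) between osteosarcoma and osteoblasts, and 13 by the F test; as shares these were 38.9%, 61.1%, 50% and 72.2%, against 46.2%, 40.3%, 47.0% and 65.3% of the genes in that fit. With the median over all genes as the limit, 23 members were above it. Leaving out 1 array at a time gave 9 to 19 calls between osteoblasts and pre-osteoblasts (3 to 8 higher, 5 to 11 lower), 16 to 23 between osteosarcoma and pre-osteoblasts (7 to 12 higher) and 16 to 23 between osteosarcoma and osteoblasts (7 to 13 higher, 8 to 12 lower). Over the named genes and their alternatives, 170 of 2826 values lost their call, 40 gained one, 2558 kept their direction and their side of the threshold, and 58 that were called neither before nor after changed sign. The cause was not tested. The labels do not say whether same-numbered Kusa4b10 samples come from 1 culture. Deviations of same-numbered arrays correlated at 0.152, 0.176 and 0.0278, and 2 of 3 osteoblast arrays correlated best with their own number. With 3 arrays per group these values cannot decide whether the samples are paired. A fit of these 6 arrays with the replicate block called 16 members, 7 higher and 9 lower (13.1%, against 29.5% of all genes). Of the 16 members called in the main fit it kept 13, with 5 of the 8 higher and 8 of the 8 lower. Kcng2, Kcnmb3 and Kcnh3 lost their call (adjusted p 0.104, 0.112 and 0.0582). The members that gained one included Cacna1g and Cacnb1 (0.04995 and 0.0439).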
